A study of Mus musculus with 18 samples.

Results

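Spleen erythroblasts of mice with a single D45 allele of Klf1 beside a wild-type allele (WT/D45) were compared with those of mice with a single knockout allele beside a wild-type allele (WT/KO), which asks whether D45 acts like a null allele when a normal copy is present. Members were chosen by genotype label alone, as the 3 WT/D45 and the 5 WT/KO libraries among 18 libraries in all, each from its own mouse. The product of Klf1 is a zinc finger transcription factor of red cell precursors, which binds CACCC-type motifs and activates globin, haem, membrane and cell cycle genes as red cells form. A carrier of a null Klf1 allele makes the factor from the remaining copy, and carriers of such alleles are usually healthy. A missense protein is different in kind, since it may keep part of the function or interfere with the normal protein.

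The D45 allele (from the mouse line MommeD45) is a missense change that the series title places in linker-2, the stretch that joins a pair of zinc fingers. The labels do not say how the KO allele was made, and give neither sex, age nor strain. WT/D45 and WT/KO mice both carry 1 normal allele. The remaining libraries were 4 of D45/KO (the compound heterozygote, for which the submitters describe haemolytic anaemia), 3 of D45/D45 and 3 of WT/WT. The erythroblasts were isolated by sorting spleen cells on CD71 (which takes up transferrin-bound iron) and TER119 (found on maturing red cells).

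Counts were deposited for 23365 gene symbols, and 13405 genes passed a filter on low counts and were tested. Totals were 56.3, 15.8 and 28.0 M counts (M stands for 1e+06) in WT/D45 replicates 1 to 3, and 54.7, 31.7, 9.36, 24.6 and 37.0 M in WT/KO replicates 1 to 5. Levels are given in CPM, counts per 1e+06 after TMM scaling of library sizes. The erythroid markers were abundant in every library, with a summed level of 39530 to 377000 CPM in WT/D45 and 27940 to 400200 CPM in WT/KO. Transcripts of 18 B cell markers set libraries apart within both genotypes. Their summed level was 2587 CPM in WT/D45 replicate 1 and 3669 to 4455 CPM in WT/KO replicates 1 to 3, called high libraries here, against 27.63 and 111.5 CPM in the other WT/D45 and 38.0 and 85.36 CPM in the other WT/KO libraries, called low. High libraries were thus 1 of 3 in WT/D45 and 3 of 5 in WT/KO, so many results are also given within levels (1 against 3 high and 2 against 2 low libraries) or with the mean log2 CPM of the B cell markers as a covariate. Counts of 4 Y-linked genes summed to 16753 and 2498 in WT/KO replicates 1 and 3, but to at most 4 in each WT/D45 library and at most 18 in each of the other WT/KO libraries. All 4 low libraries of the comparison were among those with few Y-linked counts. Xist had 127 and 52 counts in WT/KO replicates 1 and 3, and 7072 to 71493 in the other libraries of the comparison. Sex as read from these genes thus differed between the genotypes, with males only among the high WT/KO libraries. Its part in the results was not tested. Among the libraries compared, every high library came from a mouse with a lower identifier number in the labels than every low library. Marker level thus cannot be told apart here from the order of the mice. In bulk libraries, fewer cells of a type and less RNA per cell cannot be told apart.

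Klf1 itself was measured at 551.3, 1101 and 1295 CPM in WT/D45 and at 230.3, 158.0, 191.2, 659.5 and 834.5 CPM in WT/KO. The genotypes overlapped as a whole, but within the high and within the low libraries every WT/D45 library stood above every WT/KO library. With 1 against 3 high and 2 against 2 low libraries, such separation can easily arise without a difference. Its share among all genes was not counted, here or for the genes described this way below. Means were 982.5 ± 385.8 CPM in WT/D45 (SD, n = 3) and 414.7 ± 310.7 CPM in WT/KO (SD, n = 5), beside 821 ± 322 CPM in WT/WT (SD, n = 3). The log2 fold change of WT/D45 over WT/KO was 1.25 ± 0.56 (SE; 95% interval 0.06 to 2.43), which did not pass the genome-wide test (edgeR quasi-likelihood, Benjamini-Hochberg adjusted p = 0.924, unadjusted p = 0.0406). With the B cell marker covariate it was 1.05 ± 0.25 (interval 0.54 to 1.57, adjusted p = 0.937). The mean log2 CPM differed by 1.53 in the high and 0.69 in the low libraries. Against WT/WT, WT/D45 had 0.26 ± 0.64 and WT/KO had -0.99 ± 0.56. Whether the reads counted in WT/KO come in part from the KO allele cannot be read from counts per gene.

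**Figure D1:**
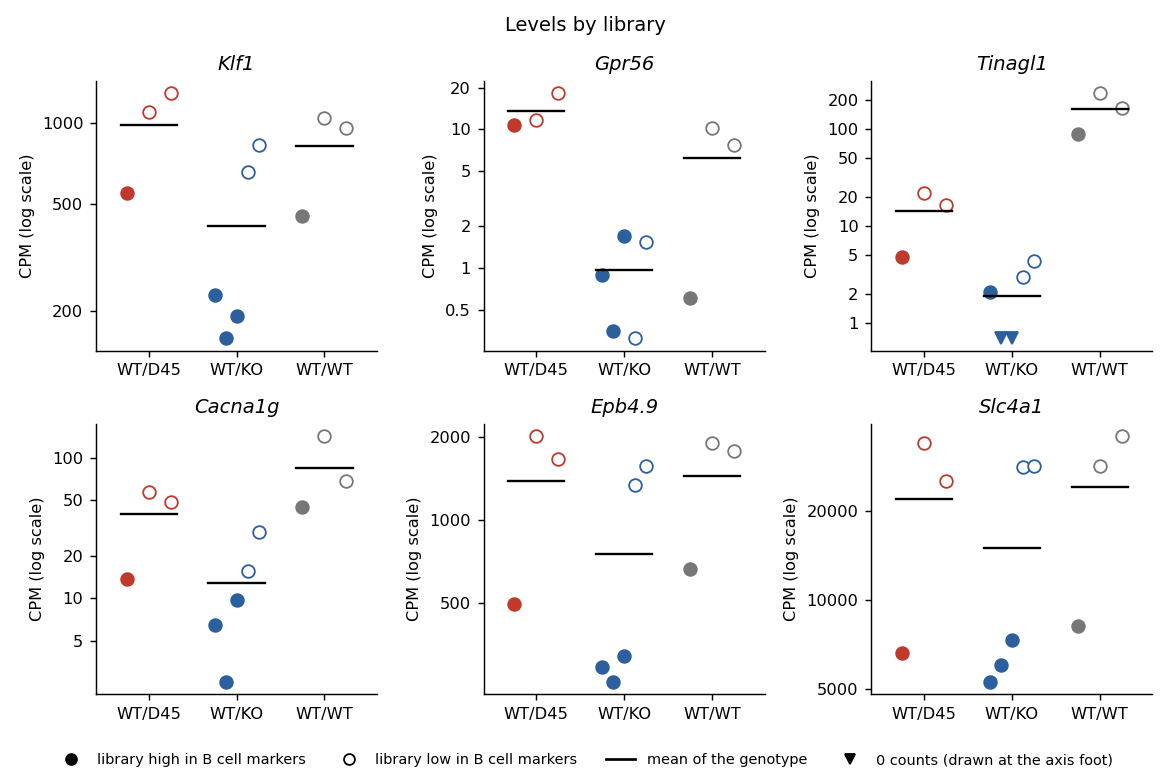
CPM on a log scale in each library of WT/D45, WT/KO and WT/WT for Klf1 and 5 other genes, with filled points for libraries high in B cell markers, open points for low ones, triangles for 0 counts and a bar for the mean. Gpr56 and Tinagl1 do not overlap between WT/D45 and WT/KO, Klf1 and Cacna1g separate within each marker level, and Slc4a1 follows the marker level in all 3 genotypes.

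Across the genome no gene passed the test between carriers of D45 and carriers of the null allele. By edgeR, 0 of 13405 genes (0%) passed in WT/D45 against WT/KO at an adjusted p under 0.05, with 0 higher and 0 lower. At an unadjusted p under 0.05 there were 338 genes (2.52%), of which 152 were higher (1.13%) and 186 lower (1.39%) in WT/D45. The libraries of the genotypes did not overlap for 144 genes (1.07%), with 92 above (0.686%) and 52 below (0.388%) in WT/D45. Limma-voom called 0 as well. DESeq2 called 2 (0.0149%), Gpr56 above and the Y-linked Uty below in WT/D45, and limma-voom with library weights 2 (0.0149%), Plek2 and Cacna1g, both above. On the low libraries alone edgeR called 5 of 13719 (0.0364%), with Gpr56, Tinagl1 and Klhl7 above and E4f1 and Chst10 below in WT/D45. A lack of calls does not show that the alleles act alike. The 95% interval lay within a 2-fold difference for 2317 genes (17.3%), and its median width was 3.14 on the log2 scale. With the B cell marker covariate, 4705 genes (35.1%) had an interval within 2-fold, and again 0 were called. Neither carrier differed from WT/WT in any gene that passed, with 0 called and 194 at an unadjusted p under 0.05 (1.45%) in WT/D45 against WT/WT, and 0 called and 573 (4.27%) in WT/KO against WT/WT.

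The smallest p belonged to Gpr56, also known as Adgrg1, an adhesion receptor of the cell surface. It was at 10.72, 11.64 and 18.20 CPM in WT/D45, against 0.8981, 0.3549, 1.704, 0.3113 and 1.540 CPM in WT/KO. Every WT/D45 library was above every WT/KO library, at both B cell marker levels. The log2 fold change was 3.81 ± 0.68 (interval 2.38 to 5.24, edgeR adjusted p = 0.420, unadjusted p = 3.14e-05). DESeq2 called it (adjusted p = 0.000226), as did edgeR on the low libraries alone (3.90, adjusted p = 0.0150), and over the settings tried it was called in 2. WT/WT libraries were at 0.6114, 10.29 and 7.691 CPM, all below WT/D45, with the first inside the WT/KO range and the others between the carriers. D45/D45 libraries were at 33.58, 21.07 and 25.13 CPM and D45/KO libraries at 29.05, 17.20, 20.87 and 33.32 CPM, all above every WT/KO library.

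Tinagl1, a secreted matricellular protein, was the gene with the lowest log2 fold change among those that passed in D45/KO against WT/WT (-10.07). It was at 4.807, 21.99 and 16.34 CPM in WT/D45, against 2.089, 0, 0, 2.957 and 4.386 CPM in WT/KO. The genotypes did not overlap, and both stood below the WT/WT libraries at 89.21, 232.4 and 164.1 CPM. The log2 fold change was 2.92 ± 1.06 (interval 0.68 to 5.17, adjusted p = 0.924), and it was called on the low libraries alone (2.36, adjusted p = 0.0150).

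Promoter sequences are shown for these 2 genes, which had the smallest adjusted p in the low libraries, because KLF1 acts through CACCC-type sites near promoters. They are RefSeq sequences of build GRCm38.p6 from 250 bases before to 50 after each annotated start, given 5′ to 3′ on the gene's strand, with capitals at every match to CCNCNCCC on either strand.
Gpr56 first start, chr8:94976859-94977158, plus strand: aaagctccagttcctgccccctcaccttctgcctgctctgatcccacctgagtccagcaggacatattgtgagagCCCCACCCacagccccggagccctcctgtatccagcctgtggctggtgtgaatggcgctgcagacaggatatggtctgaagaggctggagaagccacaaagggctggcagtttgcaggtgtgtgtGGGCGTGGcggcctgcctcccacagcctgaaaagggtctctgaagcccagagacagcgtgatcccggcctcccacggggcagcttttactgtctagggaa
Gpr56 second start, chr8:94984149-94984448, plus strand: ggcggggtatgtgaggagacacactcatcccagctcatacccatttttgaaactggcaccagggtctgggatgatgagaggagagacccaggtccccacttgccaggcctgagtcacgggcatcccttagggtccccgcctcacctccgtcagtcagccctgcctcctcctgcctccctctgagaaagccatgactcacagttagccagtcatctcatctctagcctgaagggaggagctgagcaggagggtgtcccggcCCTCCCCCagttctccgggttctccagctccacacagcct
Tinagl1 upstream start, chr4:130175073-130175372, minus strand: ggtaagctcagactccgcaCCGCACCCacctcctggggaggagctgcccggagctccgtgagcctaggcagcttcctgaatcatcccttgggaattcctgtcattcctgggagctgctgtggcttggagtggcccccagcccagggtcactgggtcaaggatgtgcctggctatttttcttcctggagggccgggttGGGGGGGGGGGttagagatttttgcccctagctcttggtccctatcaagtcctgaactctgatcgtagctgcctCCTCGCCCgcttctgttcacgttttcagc
Tinagl1 downstream start, chr4:130174753-130175052, minus strand: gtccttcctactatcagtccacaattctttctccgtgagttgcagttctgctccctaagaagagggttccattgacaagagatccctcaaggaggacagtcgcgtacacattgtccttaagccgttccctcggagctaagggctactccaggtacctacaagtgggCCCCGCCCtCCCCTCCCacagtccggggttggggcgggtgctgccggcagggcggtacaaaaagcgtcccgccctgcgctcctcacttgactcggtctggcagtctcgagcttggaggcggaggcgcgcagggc
The motif is short, and 49.5% of all 32851 RefSeq promoters of this length hold at least 1 match, with overlapping matches on a run of G counted separately. Of the 83 genes that passed in D45/KO against WT/WT, 60 had an entry, and among these, 65 of 89 promoters (73.0%) held a match, without adjustment for base composition. Of 132 genes picked for naming, 99 had an entry, and 93 of their 125 promoters (74.4%) held a match. They include part of the 83 genes and markers of other cells. A match describes letters in a window and not a bound site.

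Klhl7, an adaptor of a ubiquitin ligase, was at 27.76, 68.97 and 42.36 CPM in WT/D45 and 11.61, 5.994, 6.685, 1.401 and 0.2679 CPM in WT/KO (log2 fold change 3.15 ± 0.92, adjusted p = 0.924). Its WT/WT libraries ran from 1.901 to 100.7 CPM, wider than the difference. Pot1b, a telomere-binding protein, had 19.59, 27.97 and 27.55 CPM in WT/D45 and 11.34, 11.57, 12.71, 12.45 and 11.22 CPM in WT/KO (1.08 ± 0.32). The 5 WT/KO libraries were close together for Pot1b, and all lay below WT/D45. Ints10, an Integrator complex subunit, had 41.94, 42.07 and 45.38 CPM in WT/D45 and 31.23, 18.14, 18.35, 19.06 and 28.09 CPM in WT/KO (0.91 ± 0.28). Paqr4 (1.65 ± 0.51), Clgn, a chaperone of the endoplasmic reticulum (1.50 ± 0.53), Ube2j1, a ubiquitin-conjugating enzyme of the same organelle (0.50 ± 0.19), and Tfcp2, a transcription factor (1.28 ± 0.53), completed the genes above in WT/D45 without overlap, together with Abca13, whose value rested on 5.659 CPM in WT/D45 replicate 2. None of these passed edgeR's test in the fit to all 18 libraries, with the adjusted p of 0.924 shared by all. On the low libraries alone edgeR called Klhl7 (6.24, adjusted p = 0.042). Its mean log2 CPM differed by 6.31 in the low and 1.83 in the high libraries.

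Among genes below in WT/D45, Dhrs3, a retinaldehyde reductase, had the smallest p, at 3.211, 2.242 and 3.475 CPM in WT/D45 and 4.056, 8.360, 14.09, 7.081 and 5.592 CPM in WT/KO (-1.39 ± 0.46, adjusted p = 0.924). The mechanosensitive channel Piezo1 had 40.52, 34.81 and 44.72 CPM in WT/D45 and 62.67, 54.38, 96.93, 52.99 and 121.7 CPM in WT/KO (-0.96 ± 0.35). The scaffold Iqgap2 had 3.882, 1.495 and 2.193 CPM in WT/D45 and 24.14, 8.478, 6.947, 32.37 and 36.10 CPM in WT/KO (-3.08 ± 1.24). Each was below in all 3 WT/D45 libraries. The stress-inducible chaperone Hspa1b had -6.08 ± 2.20, a value that WT/KO replicate 3 at 88.8 CPM set, since the other 4 WT/KO libraries ran from 0.9859 to 2.646 CPM. N4bp1 (-1.46 ± 0.51), the mitochondrial glutamate carrier Slc25a22 (-1.37 ± 0.49), the zinc finger protein E4f1 (-1.25 ± 0.45), the cholesterol transporter Npc1 (-1.08 ± 0.42), Scai (-0.71 ± 0.28) and Wdfy3 (-1.45 ± 0.59) were the others. Marker level moved some of these, with mean log2 CPM differences of -2.61 in the low and -0.26 in the high libraries for Slc25a22, -2.24 and -0.13 for E4f1, and -0.25 and -1.57 for Wdfy3. E4f1 was called on the low libraries alone (-2.15, adjusted p = 0.0245).

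KLF1 target genes had a median above that of all genes in the fit to all libraries and below it in the low libraries. Of 42 targets listed, 40 were tested, 0 were called, 34 had a log2 fold change above 0, and their median was 0.41, where the median of all genes was -0.07 and 46.3% were above 0. With the B cell marker covariate the median was 0.14, with 27 above 0. In the high libraries alone the median was 0.41 (31 above 0), and in the low libraries alone -0.07 (11 of 39 above 0). Leaving out 1 library at a time gave 0.11 (without WT/D45 replicate 2) to 0.76 (without WT/KO replicate 4). The intervals were wide in the first fit, with 0 of 40 within 2-fold, while 25 of 40 (62.5%) lay within 2-fold with the covariate, against 35.1% of all genes. That share was not particular to the targets. With the covariate it was 90.8% for ribosomal proteins, 71.4% for S, G2 and M phase and 63.9% for membrane skeleton genes. Lower shares were found for haem synthesis and iron (52.5%) and globins (0%), among other lists. Against WT/WT, the median of the targets was -0.12 in WT/D45 and -0.62 in WT/KO.

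The band 3 anion exchanger Slc4a1 had 6591, 33860 and 25270 CPM in WT/D45 and 5285, 6021, 7300, 28050 and 28250 CPM in WT/KO. High libraries were low in Slc4a1 in both genotypes, and within a level the genotypes overlapped. Its log2 fold change was 0.55 ± 1.22, and 0.14 ± 0.42 with the covariate (interval -0.74 to 1.02). Epb4.9 (dematin, which bundles actin) had 496.2, 2009 and 1672 CPM in WT/D45 and 295.6, 260.8, 324.0, 1336 and 1571 CPM in WT/KO. Within each level it stood above in every WT/D45 library, with 0.88 ± 0.69, and 0.56 ± 0.25 with the covariate (interval 0.04 to 1.07). The glucose transporter Slc2a4 had 45.65, 137.3 and 147.5 CPM in WT/D45 and 32.20, 21.75, 27.52, 109.6 and 126.5 CPM in WT/KO, with 0.79 ± 0.57, and 0.51 ± 0.19 with the covariate (interval 0.10 to 0.92). These 2 and Klf1 were the targets whose covariate interval did not hold 0, though none was called.

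Several other membrane targets had intervals within 2-fold once marker level was in the fit. Ankyrin Ank1 had -0.04 ± 0.31, protein 4.2 (Epb4.2) -0.10 ± 0.30, the water channel Aqp1 0.15 ± 0.29, the Kell antigen Kel 0.28 ± 0.26 and the Rh-associated Rhag 0.18 ± 0.26 with the covariate. The same held for the transferrin receptor Tfrc (0.25 ± 0.29), the cell cycle regulator E2f2 (0.18 ± 0.29), the nuclease Dnase2a (-0.08 ± 0.27), Klf3 (0.24 ± 0.20), Xk (0.37 ± 0.24), Ermap (0.12 ± 0.29) and the adhesion molecule Icam4 (0.41 ± 0.22). Intervals reached past 2-fold for protein 4.1 (Epb4.1, -0.78 ± 0.56, the lowest value among the targets), the spectrin chain Sptb (-0.20 ± 0.42), the haem enzyme Alas2 (-0.45 ± 0.60), the red cell pyruvate kinase Pklr (0.57 ± 0.52), Cd44 (-0.56 ± 0.44) and Bcl11a, a repressor of embryonic globin (0.61 ± 0.33).

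**Figure D2:**
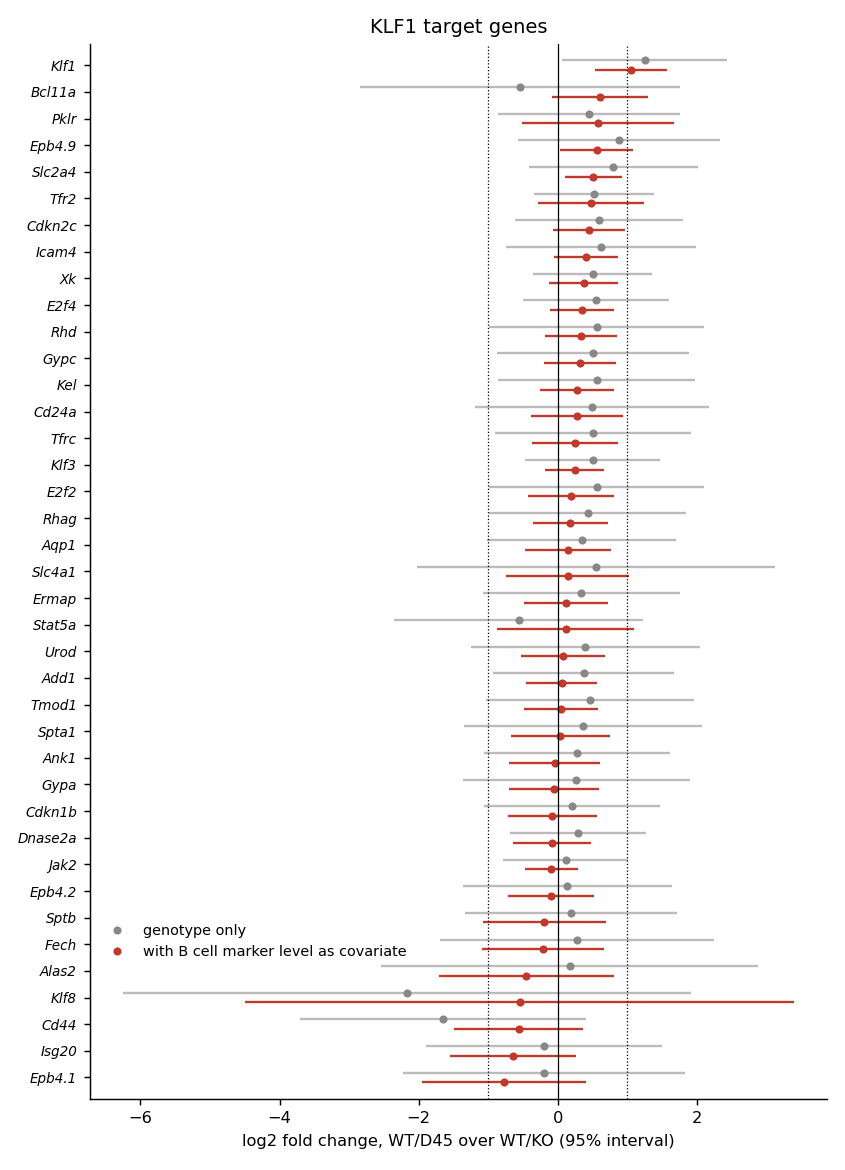
Log2 fold change of WT/D45 over WT/KO with its 95% interval for 39 of the 40 KLF1 targets tested, from the fit on genotype alone (grey) and with the covariate for B cell markers (red), with dotted lines at a 2-fold difference. The grey intervals all pass a dotted line, 25 of 39 red intervals lie between the lines, and Klf1 leads the list.

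Genes of the red cell membrane, which the series title names, differed by list in how they moved with marker level. Of 59 membrane transporters tested 0 were called, 38 were above 0 and the median was 0.31, or 0.13 with the covariate and -0.06 in the low libraries, and 0.03 (without WT/D45 replicate 3) to 0.60 (without WT/D45 replicate 1) with 1 library left out. The calcium channel subunit Cacna1g had 13.75, 57.12 and 48.73 CPM in WT/D45 and 6.504, 2.544, 9.699, 15.64 and 29.70 CPM in WT/KO (log2 fold change 1.64 ± 0.62, unadjusted p = 0.0169), and was called with limma-voom and library weights (2.85, adjusted p = 0.0287). Within each level all its WT/D45 libraries were above WT/KO. Of 36 membrane skeleton genes 0 were called and 18 were above 0, with a median of 0.03, -0.03 with the covariate, -0.02 in the high and -0.11 in the low libraries, or -0.12 under DESeq2's size factors, which move the median of all genes to -0.19. Of 30 surface glycoproteins 25 were above 0 (median 0.49, -0.01 in the low libraries, 0.23 without WT/D45 replicate 3 to 0.76 without WT/KO replicate 4), and the smallest p after Gpr56 was 0.0799.

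Of 40 genes of haem synthesis and iron, 0 were called and 28 were above 0, with a median of 0.35 (0.08 with the covariate and -0.16 in the low libraries). With 1 library left out it was 0.07 (without WT/D45 replicate 2) to 0.66 (without WT/KO replicate 4). Steap3, the ferrireductase of the transferrin cycle, had 108.1, 211.0 and 307.0 CPM in WT/D45 and 68.77, 41.17, 58.98, 124.5 and 86.29 CPM in WT/KO. Only WT/KO replicate 4 reached into the WT/D45 range, and each level separated the genotypes. Its log2 fold change was 1.46 ± 0.45 (interval 0.51 to 2.41, unadjusted p = 0.00496, adjusted p = 0.924). Tspo2, an erythroid membrane protein of the translocator family, had 121.1, 1227 and 715.7 CPM in WT/D45 and 44.13, 143.5, 48.89, 286.4 and 492.8 CPM in WT/KO (1.76 ± 0.83). Beta globin Hbb-b1 stood at 25560, 302400 and 99820 CPM in WT/D45 and 25810, 57460, 13990, 322400 and 112800 CPM in WT/KO (0.42 ± 3.13), with replicates spread further than any difference between genotypes.

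All 42 genes of S, G2 and M phase had values above 0 in the fit to all libraries, with a median of 0.53 and 0 called. The median was 0.94 in the high libraries (42 above 0), 0.35 with the covariate (42 above 0) and 0.01 in the low libraries (21 of 42 above 0). It was 0.17 without WT/D45 replicate 3 (36 above 0), 0.34 without WT/KO replicate 3, 0.35 without WT/KO replicate 2 and 0.88 without WT/KO replicate 5. Cenpf, a kinetochore protein, had 265.3, 737.8 and 850.6 CPM in WT/D45 and 210.6, 183.5, 246.0, 604.7 and 316.0 CPM in WT/KO (0.99 ± 0.42), and the replication origin factor Orc1 had 1.12 ± 0.43. Both were above in WT/D45 within each level. Ribosomal protein genes had 64 of 76 intervals within 2-fold, a median of 0.03 (-0.08 under DESeq2's size factors) and 0 called. Their median was 0.49 in the high libraries (75 above 0) and -0.14 in the low ones (16 above 0), and with 1 library left out it was -0.24 (without WT/D45 replicate 1) to 0.30 (without WT/D45 replicate 2). Interferon response genes lay below, with 3 of 35 above 0 and a median of -0.67 (-0.65 with the covariate, -0.87 in the low and -0.23 in the high libraries). Without WT/KO replicate 5 the median of the list was -0.15.

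Markers of other spleen cells moved beside these lists. B cell markers had a median of -1.37 with 0 of 18 above 0, 0.10 with the covariate, and 0.68 in the low libraries (12 of 16 above 0). The covariate is the mean of these same markers and also set the levels, so the median near 0 with it is by construction. Without WT/D45 replicate 1 the median in the fit on genotype alone was -6.87, without replicate 2 -0.79 and without replicate 3 -0.78. Macrophage and monocyte markers had a median of -2.42, with 1 of 21 above 0 and 10 lower at an unadjusted p under 0.05, where 1.39% of all genes were. The median was -1.46 with the covariate, -2.49 in the high and -0.36 in the low libraries (4 of 20 above 0). Their summed level was 111.8 to 325.5 CPM in WT/D45 and 145.4 to 3294 CPM in WT/KO, where replicates 2 and 3 held the highest sums. Neutrophil markers were the only list of other cells to lie above 0 at both levels, with a median of 1.94 (13 of 17 above 0), 1.99 in the low and 2.13 in the high libraries. They summed to 164.1, 102.7 and 90.76 CPM in WT/D45 and 62.62, 30.13, 47.12, 6.225 and 35.19 CPM in WT/KO, so the genotypes did not overlap. Ngp, a granule protein, had 41.60, 24.98 and 16.47 CPM in WT/D45 and 14.14, 2.248, 6.160, 0 and 6.161 CPM in WT/KO (2.26 ± 1.20, adjusted p = 0.924). In WT/WT the neutrophil sum was 225.9, 307 and 133.7 CPM, above 2 of the 3 WT/D45 libraries in every case. T and NK cell markers summed to 18.08 to 49.86 CPM in WT/D45 and 20.78 to 140.2 CPM in WT/KO. The part of these cells in the erythroid results was not tested.

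**Figure D3:**
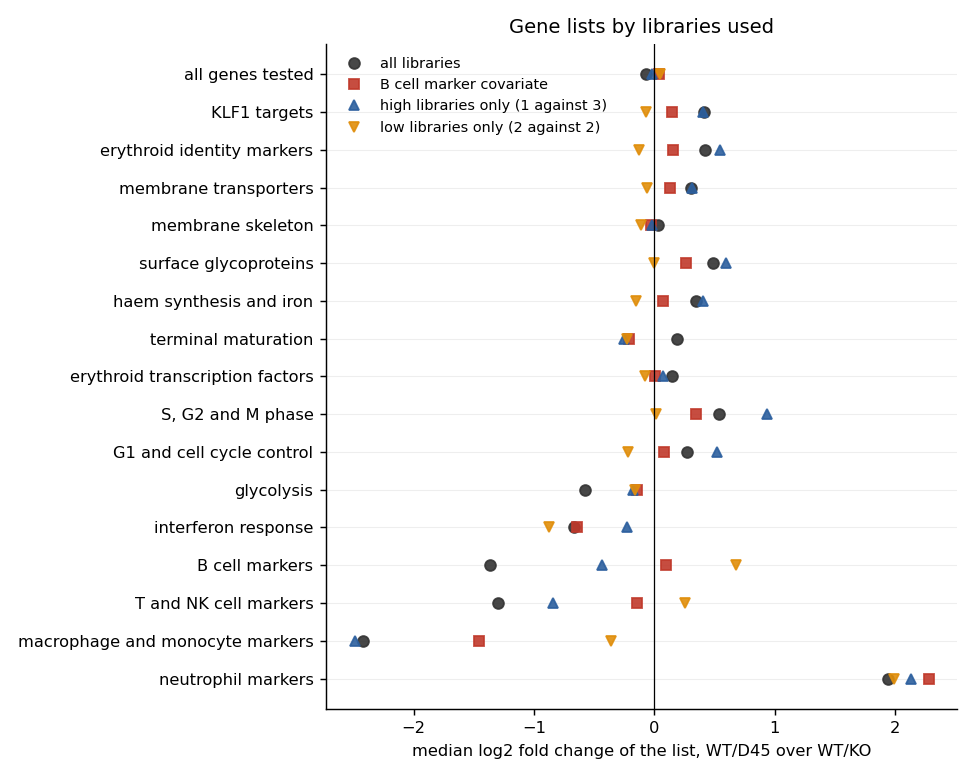
Median log2 fold change of WT/D45 over WT/KO for 16 gene lists and for all genes, from all libraries, with the B cell marker covariate, and from the high or low libraries alone. KLF1 targets lie at 0.41 with all libraries and at -0.07 in the low ones, while neutrophil markers stay between 1.94 and 2.28.

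To set the carriers beside the change in the compound heterozygote, levels were read for the genes that D45/KO against WT/WT called, a contrast whose 7 libraries are not among the 8 compared here, although a single fit gives the spread of both contrasts. That contrast called 83 genes (0.619%), 35 higher (0.261%) and 48 lower (0.358%) in D45/KO. High libraries were 3 of 4 in D45/KO against 1 of 3 in WT/WT. They were likewise 3 of 5 in WT/KO against 1 of 3 in WT/D45. A gene that follows marker level can therefore run opposite in the reading below. The part of marker level in the choice of these genes was not tested. Each gene was read by sign, as whether the mean log2 CPM of WT/D45 minus WT/KO ran opposite to D45/KO over WT/WT, which is not a distance to WT/WT. It ran opposite for 67 of the 83 genes and the same way for 16. It ran opposite for 45 of the 48 genes lower in D45/KO (median log2 fold change of WT/D45 over WT/KO 0.68) and for 22 of the 35 higher ones (median -0.17). For all genes tested 50.2% of the mean differences were above 0. The count was 73 of 83 in the low libraries (42 of 48 and 31 of 35), where 47.4% of all genes were above 0, and 55 of 83 in the high libraries (35 of 48 and 20 of 35), where 49.8% were. Between WT/D45 and WT/KO, 0 of the 83 genes were called, 14 had an unadjusted p under 0.05 (16.9%, where 2.52% of all genes did) and 8 did not overlap (9.64%, where 1.07% of all genes did not).

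Eef2k, the kinase of elongation factor 2, was among the clearest, at 60.39, 104.6 and 145.5 CPM in WT/D45 and 33.71, 38.88, 36.31, 69.57 and 87.13 CPM in WT/KO, with WT/WT at 107.1, 215.6 and 160.0 CPM and D45/KO between 16.87 and 24.06 CPM. Its log2 fold change was 0.96 ± 0.35 (interval 0.23 to 1.70), and each level separated the genotypes. Scai, a transcription cofactor that is higher in D45/KO, had 18.52, 20.29 and 14.27 CPM in WT/D45 and 25.68, 27.86, 26.15, 44.20 and 20.43 CPM in WT/KO, without overlap. Zfp790 had 5.100, 5.339 and 5.295 CPM in WT/D45 and 7.894, 7.512, 10.88, 8.171 and 9.141 CPM in WT/KO (-0.73 ± 0.35). Dapp1 also lay below without overlap (-0.65 ± 0.34), while Tinagl1, Paqr4, Tfcp2, Ints10 and Dkc1 (0.33 ± 0.23) lay above. The 3 genes lower in D45/KO that were not higher in WT/D45 than in WT/KO were Phospho1 (-0.04 ± 0.87), S100a13 (-0.18 ± 0.70) and Lck (-0.19 ± 0.30). Podxl, the largest rise in D45/KO, had 0.49 ± 0.89.

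**Figure D4:**
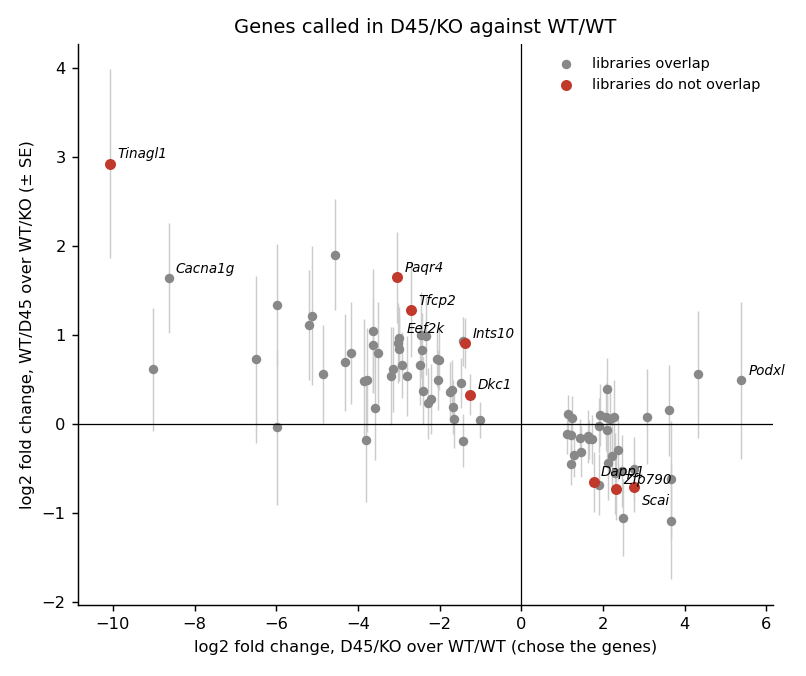
The 83 genes that passed in D45/KO against WT/WT, with their log2 fold change in that contrast on the x axis and the log2 fold change of WT/D45 over WT/KO with its SE on the y axis. Most of the 48 genes on the left lie above 0, and Tinagl1 and Cacna1g are the labelled ones furthest to the left, at 2.92 and 1.64 on the y axis.

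The same allele swap beside a D45 allele, D45/D45 against D45/KO, used none of these 8 libraries. It called 1 of 13405 genes (0.00746%), the unnamed transcript Gm16793, with 303 at an unadjusted p under 0.05 (2.26%). The interaction, which tests whether the difference between D45 and KO depends on the partner allele, had 0 genes past an adjusted p of 0.05 (0%) and 100 past an unadjusted one (0.746%). Several genes lower in D45/KO had larger values beside D45 than beside the normal allele. They were picked for their low level in D45/KO, whose libraries also enter the contrast beside D45, so the larger values there are a description. Nxpe2 had 0.56 ± 0.55 beside WT and 3.28 ± 0.61 beside D45, with an interaction of -2.72 ± 0.83 (unadjusted p = 0.00454, adjusted p = 1). Cacna1g had 1.64 ± 0.62 and 4.0 ± 0.75, Snx22, a sorting nexin, 1.11 ± 0.62 and 3.11 ± 0.69, and the amino acid transporter Slc1a5 0.80 ± 0.57 and 2.78 ± 0.62, each with an interaction adjusted p of 1. The clathrin adaptor Clint1, picked for its high level in D45/KO, had -0.17 ± 0.22 beside WT and -1.17 ± 0.24 beside D45. Gpr56 was picked for its small p beside WT, so for both genes the difference between partners is likewise a description. Gpr56 went the other way, with 3.81 ± 0.68 beside WT and 0.08 ± 0.68 beside D45 (interaction 3.73 ± 0.98, unadjusted p = 0.00146, adjusted p = 1). Eef2k (0.96 ± 0.35 and 0.89 ± 0.37), Tinagl1 (2.92 ± 1.06 and 2.34 ± 1.27) and Scai (-0.71 ± 0.28 and -0.90 ± 0.29) had similar values beside both partners.

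**Figure D5:**
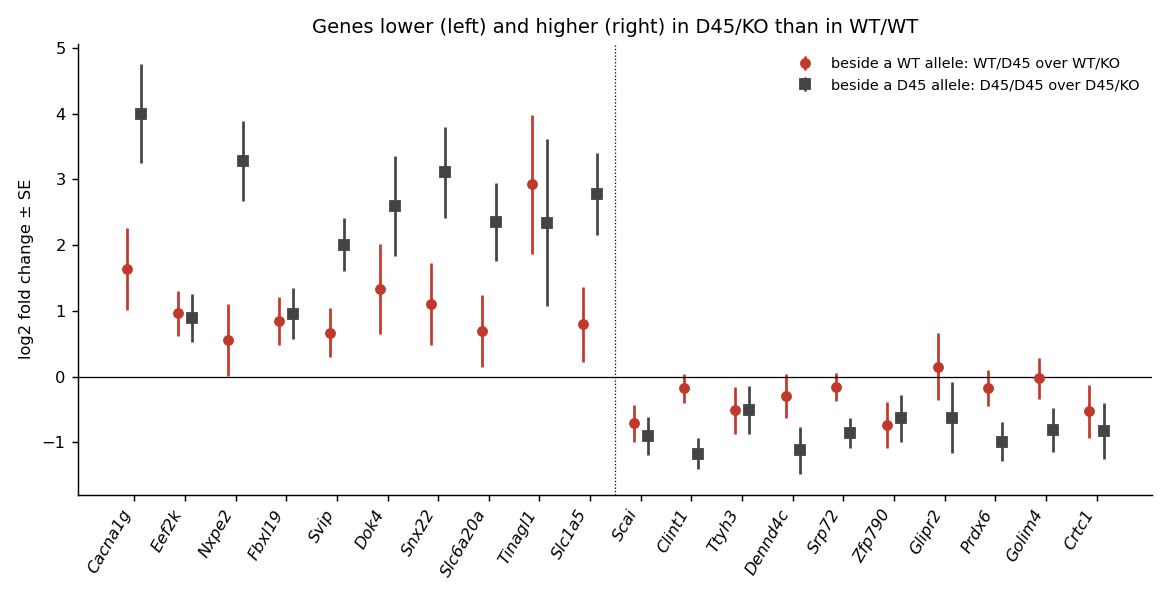
Log2 fold change with its SE beside a WT allele (circles) and beside a D45 allele (squares) for the 10 genes with the smallest adjusted p in each direction of D45/KO against WT/WT, leaving out Gm and Rik symbols. Nxpe2, Cacna1g, Snx22 and Slc1a5 lie higher beside D45, and Eef2k and Scai lie level.

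Over 9474 genes with a mean of at least 2 CPM, the log2 fold changes beside the 2 partners had a Pearson correlation of 0.656 and a Spearman correlation of 0.694, with the same sign in 77.1%. Both contrasts hold a smaller share of high libraries in the group on top, 1 of 3 in WT/D45 against 3 of 5 in WT/KO and 1 of 3 in D45/D45 against 3 of 4 in D45/KO. Within the low libraries the Pearson correlation was 0.100 (53.4% same sign), within the high ones 0.142 (50.8%), and with the covariate 0.207 (62.0%). D45/KO replicate 4 was the only low D45/KO library, and D45/D45 replicate 1 the only high D45/D45 library. B cell markers summed to 543.4, 1922 and 472.8 CPM in D45/KO replicates 1 to 3, against 1607 CPM in D45/D45 replicate 1. What lowered the correlations was not tested. The correlations describe genes, which share libraries and depth and are not independent replicates.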

How the data were processed

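Per the submitters' processing notes, the mouse build mm9 and the tools HISAT2, featureCounts and limma were used, with no versions or roles given. Per the labels' protocols, the kit was Swift Rapid RNA. The strand setting of the counting was not given. The authors deposited raw counts per gene symbol, as whole numbers. Of 23365 rows, 27 symbols had become dates and 2 were repeated, all left unnamed in the text. Among counts under 50, 63.7% to 79.9% were even in the WT/D45 and WT/KO libraries. The share was 99.9% in D45/KO replicate 2 and 99.8% in D45/D45 replicate 1, which both enter the fit over all 18 libraries. The cause was not tested.

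Groups followed the genotype in the labels. The fit was made in R 4.3.3 with edgeR 4.0.16 (filterByExpr by genotype, TMM, quasi-likelihood, not robust, over all 18 libraries, genotype as the only term), with Benjamini-Hochberg adjustment and a threshold of 0.05. The SE is the absolute log2 fold change over the square root of F, and 95% intervals use the test's degrees of freedom. Log2 CPM used a prior count of 2. DESeq2 1.42.0 and limma 3.58.1 were alternatives, with other scalings, covariates and left-out libraries. Tests were tried on simulated data with less spread between libraries than these data (common dispersion 0.695) and without marker levels. That trial does not show how the tests perform here.

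Named are Klf1, the 10 smallest p-values in each direction without overlap (mean of at least 2 CPM), up to 3 genes per list, fixed KLF1 targets, and the 10 genes of each direction leading D45/KO against WT/WT by adjusted p, all without Gm, Rik or date-like symbols (which leaves out Gm16793). Uty, Plek2, Chst10, Gm16793, Epb4.1 and Sptb, and the Y-linked and Xist counts, were chosen after their values were seen. The samples, gene lists and genes were chosen with earlier results of these data known, so no list counts as independent support. Promoters are from RefSeq on GRCm38.p6, a later build than the counts. Some genes are not reported here.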

Additional observations from a re-analysis of the deposited data

Results flagged for a closer look

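Single libraries stood apart from the rest of their genotype by Dixon's ratio in 8 of the 78 combinations of a gene and a genotype of 4 or 5 libraries that were examined, over the 39 genes chosen for values by library. The limits used flag about 1 in 20 for normally distributed values. CPM were not transformed here, and part of the genes were picked by their levels in these libraries. The 8 flags therefore cannot be set against that rate. In WT/KO, N4bp1 was at 44.04 CPM in replicate 3, with the next at 18.12 CPM, Dhx58, an interferon-induced sensor of RNA, at 30.07 CPM in replicate 5 (next 12.84 CPM), and Lcn2, a neutrophil granule protein, at 2.430 CPM in replicate 1 (next 0.5126 CPM). In D45/KO, Klhl7 was at 5.973 CPM in replicate 1 (next 3.202 CPM), Paqr4 at 1.871 CPM in replicate 2 (next 1.096 CPM), the macrophage receptor Mrc1 at 307 CPM in replicate 2 (next 42.62 CPM), and Dhrs3 at 15.09 and Snx22 at 6.635 CPM in replicate 4 (next 11.22 and 4.871 CPM). WT/D45 has 3 libraries and was not examined.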

How the results depend on the processing

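Between WT/D45 and WT/KO the count of called genes was 0 in the other edgeR fits, limma-voom and all 8 fits that left out 1 library (93 to 1418 genes at an unadjusted p under 0.05), but 2 with DESeq2, 2 with limma-voom and library weights, and 5 in the low libraries alone. Klf1 had 2.12 with library weights, 2.09 with a replicate block and 0.68 in the low libraries, and 0.99 to 1.67 with a library left out. D45/D45 against D45/KO gave 16 with DESeq2, 0 with limma-voom, 703 with library weights, 5 with only the genotypes contrasted, 12 with a replicate block, 18 with the B cell marker covariate, 11 in the low and 0 in the high libraries, and 0 to 1 with a library left out. The interaction gave 1 with DESeq2, 1 with library weights, 3 with the covariate and 1 in the low libraries. The cause of these changes was not tested. By the sign of the fitted log2 fold change, WT/D45 over WT/KO ran opposite to D45/KO over WT/WT for 57 (high libraries, a setting added after seeing the data, and 55 by mean log2 CPM) to 76 (without WT/KO replicate 3) of the 83 genes. KLF1 targets had a median of 0.36 under DESeq2's size factors and 0.11 to 0.76 with a library left out, and below 0 in the low libraries alone among the settings tried.

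Of 1260 recomputed values of 63 named genes, 48 changed sign and 42 genes kept theirs throughout. Same-numbered WT/D45 and WT/KO libraries correlated at 0.692, -0.140 and -0.395 in their deviations. The replicates numbered 1 shared a B cell marker level, and the others set a low WT/D45 library against a high WT/KO library. The values therefore cannot show whether the numbers pair the libraries. The replicate block called 0 genes between WT/D45 and WT/KO, with 3775 at an unadjusted p under 0.05. Depth limits genes near 1 CPM, which stands for 9.38 counts in WT/D45 replicate 2 and 106 in replicate 1 after scaling.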
